A study of Homo sapiens with 18 samples.

Results

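Hypoxia-response and glycolysis genes were read in MCF10A cells, an established, non-tumorigenic line of human mammary epithelial cells, across 6 groups of 3 Affymetrix arrays. The 37 genes were listed by symbol in 5 roles: glucose and lactate transporters, glycolytic enzymes, regulators of glycolytic flux, hypoxia-inducible genes, and the alpha subunits of the hypoxia-inducible factors (HIF). Of these, 34 had a probe set that carried their symbol alone, out of 18404 genes measured in this way. The lactate exporter SLC16A3, the enzyme PGAM1 and the carbonic anhydrase CA9 had none, and 4 probe sets that carry PGAM1 beside other symbols were left out. A gene with several probe sets was read from the one with the highest mean, which among these genes concerned TPI1 alone.

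All cells were infected with hairpin lentivirus at a multiplicity of 5, selected in 1.5 µg/ml puromycin for 4 days and allowed to recover for 7 days or longer. They were then transfected transiently with plasmid cDNA by lipid reagent, and RNA was taken after 5 days in M5, a medium that contains estrogen. Each array was made from 100 ng of total RNA. Cells with a non-targeting hairpin (shNT) received a control cDNA (the control arrays), YAP/TAZ cDNA, ESR1 cDNA, or YAP/TAZ and ESR1 cDNA together (both cDNAs). Cells with a hairpin against LATS1 (shLATS1B) and cells labelled shLATS1+2 received the control cDNA. YAP and TAZ are transcriptional co-activators, LATS1 and LATS2 are the Hippo kinases that restrain them, and ESR1 is estrogen receptor alpha. The hairpin cells are infected pools, and every group, the controls included, was selected, transfected and exposed to estrogen. The labels name no low-oxygen treatment. Nor do they say whether replicates were separate cultures, so the p-values reflect the spread between the arrays alone, which may be technical.

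Glycolysis breaks glucose down to pyruvate, and lactate dehydrogenase turns pyruvate into lactate. HIF, which switches on many of the genes for these steps, is a dimer of an oxygen-sensitive alpha subunit (HIF1A or EPAS1) and a stable partner. At normal oxygen the alpha subunit is hydroxylated and destroyed through VHL. Among the other HIF targets are factors for vessel growth, mitophagy receptors, collagen prolyl hydroxylases and feedback inhibitors of HIF itself.

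The core of the HIF-binding site, ACGTG, was looked for on both strands in the 250 bases before each start in a RefSeq promoter table of build GRCh38.p14. The E-box CACGTG holds these letters on both strands, so it counts as a match on each. Of the measured members, 29 had a window in the table, and 16 of these (55.2%) held the core, against 5935 of 27305 genes (21.7%) in the whole table. Among the enzymes 10 of 14 held it, and among the hypoxia-inducible genes 4 of 9. Counted by window, the core was found in 19 of 47 member windows (40.4%) and in 6501 of 35116 windows in all (18.5%). A match describes the letters and does not show that a factor binds. SLC2A3, NDRG1, VEGFA, BNIP3L and STC1 had no entry.

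The stretches with the core are printed for 6 of the 16 members that hold these letters, picked by hand among those with called changes described with their roles. Of the 6, ALDOC was higher or lower than control by group, PGK1, LDHA, PDK1 and P4HA1 were lower in 4 or 5 groups, and ANKRD37 was lower in 2. Members with the core that are not printed include ENO2, PFKFB3 and DDIT4, called higher than control in some groups. They also include HK2, PFKP, ALDOA, TPI1 and BNIP3, called lower in some, and GAPDH and GPI, with no call. The printed stretches lie, on GRCh38.p14, at chr17:28576896-28577145 on the minus strand (ALDOC), chrX:78103998-78104097 on the plus strand (PGK1), chr11:18394363-18394512 on the plus strand (LDHA), chr2:172555990-172556089 on the plus strand (PDK1), chr10:73096917-73097016 on the minus strand (P4HA1) and chr4:185396641-185396740 on the plus strand (ANKRD37). Each lies upstream of a RefSeq start and is written 5′ to 3′ on the strand of its gene, with ACGTG and its reverse complement CACGT in capitals.
ALDOC: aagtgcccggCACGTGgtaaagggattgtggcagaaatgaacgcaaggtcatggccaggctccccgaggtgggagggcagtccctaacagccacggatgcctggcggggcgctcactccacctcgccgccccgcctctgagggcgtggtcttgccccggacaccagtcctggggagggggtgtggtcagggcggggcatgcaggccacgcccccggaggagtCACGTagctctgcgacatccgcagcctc
PGK1: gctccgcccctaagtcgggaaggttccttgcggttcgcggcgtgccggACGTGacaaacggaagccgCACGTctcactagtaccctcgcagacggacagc
LDHA: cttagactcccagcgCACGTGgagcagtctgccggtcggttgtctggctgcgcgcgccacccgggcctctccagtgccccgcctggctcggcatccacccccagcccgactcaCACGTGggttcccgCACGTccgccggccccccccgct
PDK1: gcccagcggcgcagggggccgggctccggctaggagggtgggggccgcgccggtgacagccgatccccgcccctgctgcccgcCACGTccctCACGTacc
P4HA1: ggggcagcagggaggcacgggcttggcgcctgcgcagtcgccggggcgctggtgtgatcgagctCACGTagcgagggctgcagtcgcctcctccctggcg
ANKRD37: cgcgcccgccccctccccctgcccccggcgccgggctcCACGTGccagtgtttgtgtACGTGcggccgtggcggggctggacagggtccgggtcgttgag

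The deposited values are log2 intensities, on which a difference of 1 is a 2-fold difference. Array medians ranged from 5.494 to 5.619, and arrays of a group correlated with r from 0.993 to 0.998 across probe sets. The first principal component over all genes (47.3% of the variance) put the control arrays and those with a single cDNA on one side (scores -23.0 to -10.3), and the knockdowns and the group with both cDNAs on the other (9.83 to 22.7). The labels name no batch, so any difference in handling along this division cannot be told apart from the groups. LATS1 was lower in both knockdowns than in the control arrays (log2 differences of -1.19 and -1.10), but no fall of LATS2 was called with shLATS1+2 (0.09, adjusted p = 0.37). YAP1 and WWTR1 (TAZ) read 10.79 and 9.44 with YAP/TAZ cDNA and 10.84 and 9.57 in the control arrays, so the transfected cDNA was not visible at these probe sets in that group. WWTR1 was higher with both cDNAs (0.42) and with shLATS1B (0.43, limma, adjusted p = 0.0015 each), and lower with ESR1 cDNA (-0.37). ESR1 was higher with ESR1 cDNA (0.94), with both cDNAs (0.50) and also in the shLATS1B (0.85) and shLATS1+2 (0.88) arrays. Its level with both cDNAs was below that with ESR1 cDNA alone, by -0.44 (limma, adjusted p = 0.00059). All 7 measured mammary epithelial markers (KRT5, KRT14, KRT18, KRT8, ITGA6, CDH1 and EPCAM) lay above 5.208, the 30th percentile of the genes' means, in every array, and KRT17 and TP63 were not measured. They did not stay at one level: the basal keratin KRT14 had group means of 10.43 in the control arrays, 9.70 and 9.65 with YAP/TAZ and ESR1 cDNA, 8.15 with both, 7.85 with shLATS1B and 8.06 with shLATS1+2. The luminal keratin KRT8 had means of 11.07, 11.13, 11.02, 11.72, 12.17 and 11.98 in the same order. Of leukocyte markers 2 of 6, of endothelial markers 1 of 5 and of fibroblast markers 1 of 6 lay above 5.208 in every array. DCN, a fibroblast marker, read 6.02, 6.77 and 7.21 in the control arrays and 4.45 to 5.26 in all others. PECAM1, an endothelial marker, had group means of 5.73 in the control arrays, 5.66 and 5.58 with the single cDNAs, 6.01 with both, 6.28 with shLATS1B and 6.58 with shLATS1+2. Mean levels of the leukocyte, endothelial and fibroblast markers spanned 5.08 to 5.20, 5.06 to 5.30 and 5.20 to 5.70 over the arrays, and the part of all these markers in the results was not tested.

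The listed genes changed in both directions in most comparisons. The widest range of group means was 4.63-fold for ALDOC, followed by 4.02-fold for NDRG1 and 3.64-fold for STC1, while GAPDH, GPI and PFKFB4 changed in none of 9 comparisons. The median range of group means was 0.54 (log2) over the 34 members and 0.22 over all genes. All genes include dim ones with means under 5.208, their 30th percentile, while no measured member had a mean under it. A change was called at a limma adjusted p under 0.05 over the 18404 genes. With shLATS1B, 11 members were higher and 9 lower than control, where 12.4% of all genes were higher and 11.6% lower. In the shLATS1+2 arrays, 8 were higher and 9 lower (all genes 11.8% and 13%). With YAP/TAZ cDNA alone, 3 rose and 5 fell (all genes 3.16% and 3.84%). With ESR1 cDNA alone, 3 rose and 20 fell (all genes 7.04% and 11.9%), and with both cDNAs 7 rose and 9 fell (all genes 14.7% in each direction). The shares of all genes have the dim genes in their base. With brighter genes only, those above the 30th percentile, 4339 genes were called with shLATS1B and 3556 with ESR1 cDNA. With all 18404 genes the counts were 4415 and 3487. The share called was thus larger among the brighter genes, where all measured members lie, than the shares of all genes given here. These 5 comparisons share the control arrays. In such bulk samples, fewer cells with a transcript and less of it per cell cannot be told apart.

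**Figure D1:**
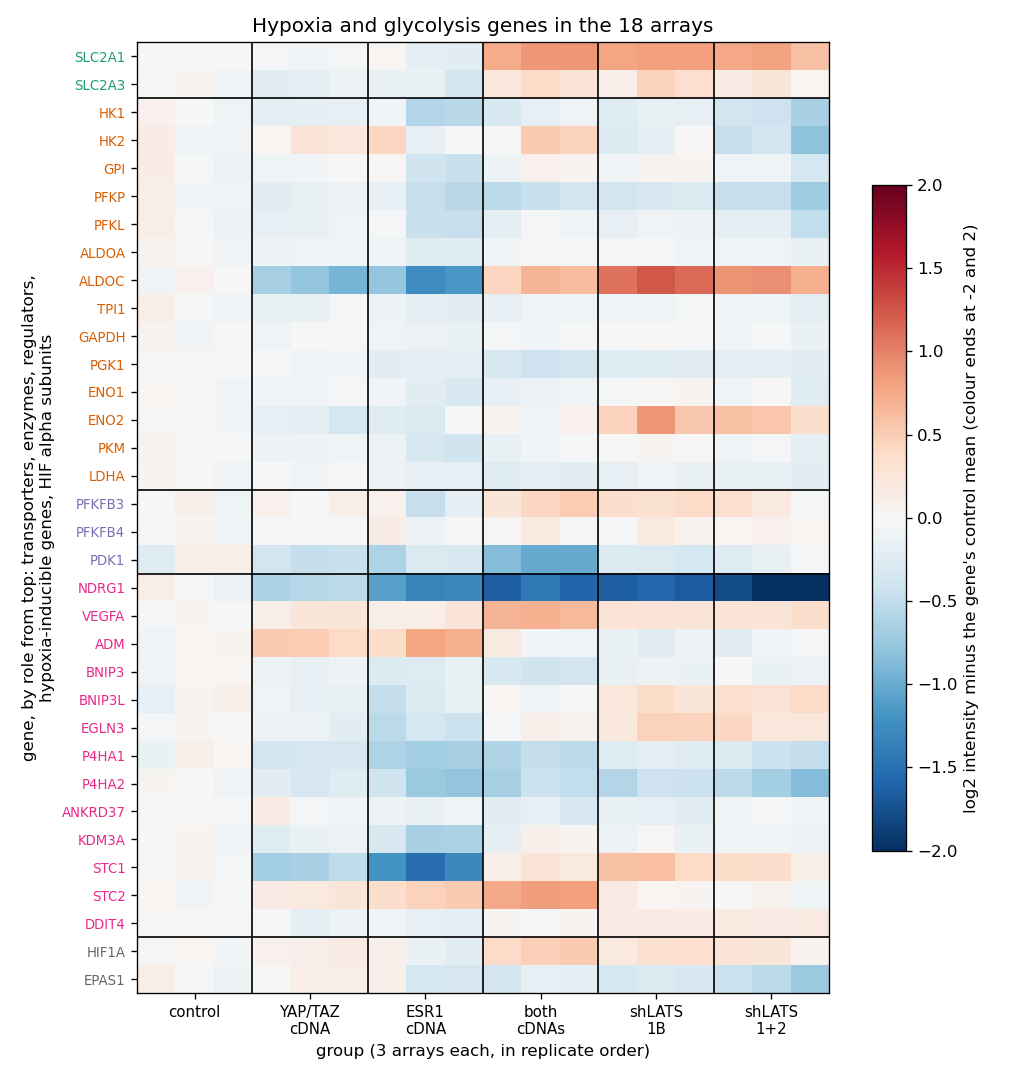
Colour shows each gene's log2 intensity in each of the 18 arrays minus its mean in the 3 control arrays, with genes in rows by role and arrays in columns by group. ALDOC and SLC2A1 are higher than control with both cDNAs and in both knockdowns, and NDRG1 is lower in all 15 arrays outside the control group.

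SLC2A1, the basal glucose transporter GLUT1, was 1.64-fold to 1.78-fold higher than control with both cDNAs and in the 2 knockdowns, and no change was called with either cDNA alone. Its log2 intensities were 10.93, 10.93 and 10.93 in the control arrays, 10.88, 10.87 and 10.91 with YAP/TAZ cDNA, and 10.98, 10.73 and 10.72 with ESR1 cDNA. They were 11.68, 11.80 and 11.81 with both cDNAs, 11.71, 11.76 and 11.74 with shLATS1B, and 11.70, 11.73 and 11.51 with shLATS1+2. The last 9 arrays thus all lay above the other 9, along the same division as the first principal component. The differences from control were 0.83 ± 0.067 (SE) with both cDNAs, 0.81 ± 0.067 with shLATS1B and 0.72 ± 0.067 with shLATS1+2 (limma, adjusted p = 5.1e-08, 1.1e-07 and 4.4e-07).

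SLC2A3, the high-affinity transporter GLUT3, had log2 intensities of 5.48, 5.53 and 5.40 in the control arrays, 5.69, 5.85 and 5.75 with both cDNAs and 5.58, 5.93 and 5.81 with shLATS1B. Both of these groups were above control with no overlap, by 0.29 and 0.30 (limma, adjusted p = 0.014 each). The shLATS1B call was lost without control array 3, shLATS1B array 2 or shLATS1B array 3, and the call with both cDNAs without control array 3 or array 2 of its own group (adjusted p up to 0.091 and 0.071). With shLATS1+2 (5.62, 5.71 and 5.51), YAP/TAZ cDNA (5.26, 5.29 and 5.36) and ESR1 cDNA (5.33, 5.34 and 5.11) no difference from control was called. SLC2A3 was a dim gene, with a mean of 5.53 (above 37.6% of genes), and ESR1 cDNA array 3 lay under the 30th percentile of 5.208.

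ALDOC, the brain-type aldolase, split the groups most. Its log2 intensity was 9.24, 9.40 and 9.30 in the control arrays, 8.64, 8.53 and 8.39 with YAP/TAZ cDNA and 8.55, 8.08 and 8.16 with ESR1 cDNA. It was 9.75, 9.99 and 9.92 with both cDNAs, 10.39, 10.56 and 10.45 with shLATS1B and 10.22, 10.22 and 10.03 with shLATS1+2. The 6 arrays with a single cDNA all lay below the control arrays, and the 9 arrays of the other groups all lay above them. ALDOC fell 1.73-fold with YAP/TAZ cDNA (-0.79 ± 0.11, adjusted p = 0.00012) and 2.08-fold with ESR1 cDNA (-1.05 ± 0.11, adjusted p = 2.8e-06, limma). It rose 1.49-fold with both cDNAs (0.57 ± 0.11, adjusted p = 0.00042), 2.23-fold with shLATS1B (1.16 ± 0.11, adjusted p = 3.5e-07) and 1.79-fold with shLATS1+2 (0.84 ± 0.11, adjusted p = 1.3e-05, limma).

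The ubiquitous aldolase, ALDOA, ranged only 1.14-fold over the group means. ENO2, the neuronal enolase, read 5.44, 5.45 and 5.36 in the control arrays, 5.88, 6.30 and 5.96 with shLATS1B and 5.997, 5.975 and 5.775 with shLATS1+2. It was thus higher in both knockdowns, by 0.63 and 0.50 (limma, adjusted p = 0.00011 and 0.001). With both cDNAs ENO2 read 5.49, 5.35 and 5.50 and overlapped the control arrays. Its values were 5.25, 5.24 and 5.06 with YAP/TAZ cDNA and 5.17, 5.13 and 5.37 with ESR1 cDNA, with no change called. ENO2 was likewise dim, with a mean of 5.54 (above 37.8% of genes), and some of these single-cDNA arrays lay under 5.208. HK2, an inducible hexokinase that commits glucose to the cell, fell by 0.55 with shLATS1+2 (8.78, 8.85 and 8.43, against 9.39, 9.15 and 9.16 in the control arrays; adjusted p = 0.015). That call was lost without control array 1 or shLATS1+2 array 3 and with the array median as a covariate, where the difference was -0.32 (adjusted p up to 0.087). HK2 lay between 8.96 and 9.75 in the arrays of the other 4 groups, and no difference from control was called in them.

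The remaining enzymes moved little. PGK1, which catalyses the first step of glycolysis that makes ATP, was 1.15-fold to 1.29-fold lower than control with ESR1 cDNA, both cDNAs, shLATS1B and shLATS1+2. Its control arrays read 12.41, 12.46 and 12.43, and the arrays with both cDNAs read 12.12, 12.02 and 12.05 (-0.37 ± 0.037, limma, adjusted p = 7.2e-07). LDHA, the lactate dehydrogenase subunit favoured in glycolytic cells, was lower by 0.13 to 0.22 in the same 4 groups, though the shLATS1B call (adjusted p = 0.038) was lost without control array 1, control array 2, shLATS1B array 1 or shLATS1B array 3 (adjusted p up to 0.15). Its call with ESR1 cDNA (adjusted p = 0.024) was lost in 6 alternatives, among them those without control array 1 or 2 or ESR1 cDNA array 2 or 3 (adjusted p up to 0.36). PFKP, the platelet-type phosphofructokinase, fell by 0.33 to 0.54 in those 4 groups. Leaving out control array 1 ended its shLATS1B call (adjusted p = 0.055). HK1, GPI, PFKL, TPI1, ENO1 and PKM had ranges of group means of 1.13-fold to 1.39-fold. GAPDH, often used as a reference, differed from control by at most 0.12, with no call.

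With ESR1 cDNA alone, 10 of 14 enzymes were lower and none higher (all genes 11.9% and 7.04%), with a median difference of -0.20 (all genes 0.00). The members were HK1, PFKP, PFKL, ALDOA, ALDOC, TPI1, PGK1, ENO1, PKM and LDHA, which with the exception of ALDOC fell by 0.15 to 0.40. This count was unstable. ESR1 cDNA array 1 had a mean enzyme log2 intensity of 10.77, against 10.52 and 10.53 in arrays 2 and 3, while the medians of these arrays ran the other way (5.523, 5.619 and 5.601). Without ESR1 cDNA array 1 and shLATS1+2 array 3 the count was 12 (5776 genes called in all, against 3487). It was 4 without ESR1 cDNA array 2, 3 without ESR1 cDNA array 3, 4 without control array 1 and 6 without control array 2. Genes called in all numbered 2299, 2394, 2878 and 2591 in these fits. With the array median as a covariate, a setting chosen after seeing the data, 2 enzymes were lower and the median difference was -0.10, and in a fit of the control and ESR1 cDNA arrays alone 1 was. Genes called in all numbered 1992 and 1126 in these settings.

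Among the regulators, PDK1, a kinase that inhibits pyruvate dehydrogenase, was 1.95-fold lower with both cDNAs. Its log2 intensities were 9.41, 9.80 and 9.78 in the control arrays and 8.79, 8.65 and 8.66 with both cDNAs (-0.96 ± 0.098, limma, adjusted p = 9.6e-07). They were 9.28, 9.19 and 9.22 with YAP/TAZ cDNA and 9.04, 9.37 and 9.34 with ESR1 cDNA, differences of -0.43 and -0.41 (adjusted p = 0.011 and 0.0071). With shLATS1B the values were 9.39, 9.37 and 9.32 (-0.30, adjusted p = 0.034), and with shLATS1+2 they were 9.40, 9.51 and 9.62 (-0.16, adjusted p = 0.31). Control array 1 stood below the other 2 control arrays for this gene. The YAP/TAZ cDNA call was lost without control array 2, control array 3 or YAP/TAZ cDNA array 2 (adjusted p up to 0.069), and the ESR1 cDNA call in a fit of those 6 arrays alone (adjusted p = 0.13). The shLATS1B call was lost without control array 2, control array 3 or any of the shLATS1B arrays, after quantile normalization and in a fit of the compared groups alone (adjusted p up to 0.16).

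PFKFB3, which makes the activator of phosphofructokinase, read 8.48, 8.58 and 8.40 in the control arrays, 8.73, 8.91 and 8.99 with both cDNAs and 8.83, 8.79 and 8.87 with shLATS1B. It was higher in both groups, by 0.39 and 0.34 (limma, adjusted p = 0.014 and 0.034). The first call was lost without control array 3 or array 3 of both cDNAs (adjusted p up to 0.069), and the second with array medians centred and without control array 1, control array 3 or any of the shLATS1B arrays (up to 0.12). PFKFB3 read 8.57, 8.49 and 8.60 with YAP/TAZ cDNA, 8.58, 8.03 and 8.30 with ESR1 cDNA and 8.81, 8.68 and 8.45 with shLATS1+2, with no call. Its relative PFKFB4 stayed between 5.74 and 6.04 in all 18 arrays.

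**Figure D2:**
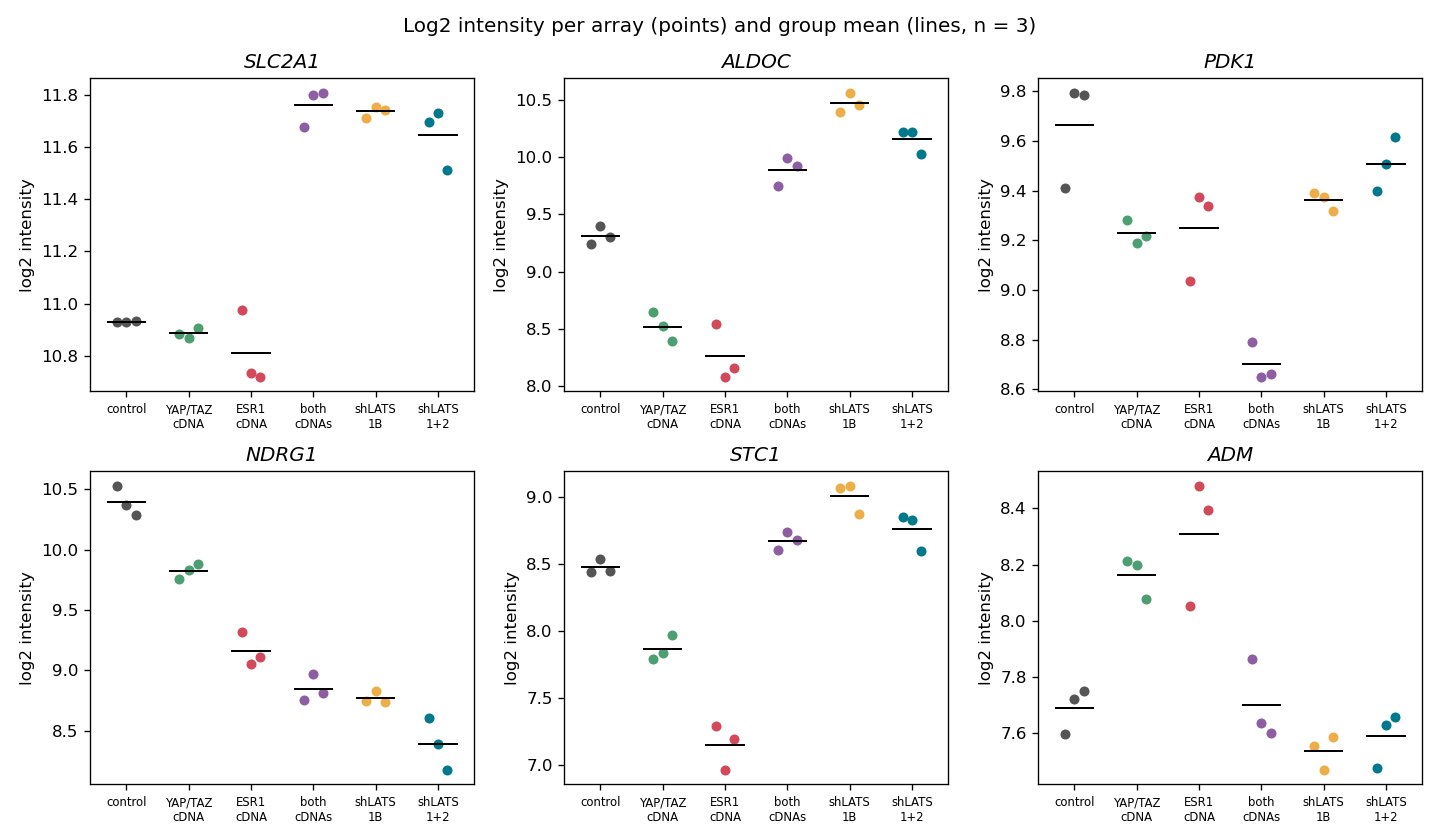
Points are log2 intensities of SLC2A1, ALDOC, PDK1, NDRG1, STC1 and ADM in each array, and lines are means of 3 arrays per group. ALDOC and STC1 are below control with each single cDNA and above it in both knockdowns, and ADM is above control with each single cDNA alone.

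Of the 13 hypoxia-inducible genes, NDRG1, a growth-arrest and stress-response gene, was lower than control in all 5 other groups. Its log2 intensities were 10.53, 10.37 and 10.28 in the control arrays, 9.76, 9.83 and 9.88 with YAP/TAZ cDNA and 9.31, 9.05 and 9.11 with ESR1 cDNA. They were 8.75, 8.97 and 8.81 with both cDNAs, 8.75, 8.83 and 8.74 with shLATS1B and 8.60, 8.39 and 8.17 with shLATS1+2. No array of another group reached the lowest control array. The fall was 1.49-fold with YAP/TAZ cDNA, 2.35-fold with ESR1 cDNA, 2.93-fold with both cDNAs, 3.08-fold with shLATS1B and 4.02-fold with shLATS1+2 (limma, adjusted p = 0.0011, 1.5e-07, 2.3e-09, 1.7e-09 and 1.5e-10). In that order of group means, both cDNAs and shLATS1B differed by less than the spread of their arrays. The difference between both cDNAs and ESR1 cDNA was -0.32 (adjusted p = 0.02). It was lost with array medians centred, in a fit of the compared groups alone, and without ESR1 cDNA array 1 or array 1 or 3 of both cDNAs (adjusted p up to 0.096).

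The collagen prolyl 4-hydroxylase subunits P4HA1 and P4HA2 were also lower. P4HA1 read 9.55, 9.77 and 9.71 in the control arrays, 9.06, 8.99 and 9.01 with ESR1 cDNA, and 9.08, 9.20 and 9.13 with both cDNAs. With YAP/TAZ cDNA it read 9.30, 9.33 and 9.35, with shLATS1B 9.41, 9.49 and 9.41, and with shLATS1+2 9.40, 9.24 and 9.21. All 15 of these arrays lay below the control arrays. The falls were 0.66 with ESR1 cDNA, 0.54 with both, 0.40 with shLATS1+2, 0.35 with YAP/TAZ cDNA and 0.24 with shLATS1B (log2, limma, adjusted p from 9.3e-07 to 0.007).

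P4HA2 read 9.49, 9.44 and 9.36 in the control arrays and 8.91, 8.76 and 8.56 with shLATS1+2, a 1.61-fold fall (adjusted p = 6.2e-05, limma). It read 9.04, 8.69 and 8.65 with ESR1 cDNA (-0.64), 8.767, 9.005 and 8.939 with both cDNAs (-0.53) and 8.840, 9.022 and 9.001 with shLATS1B (-0.47), and all 3 differences were called. With YAP/TAZ cDNA the values were 9.20, 9.10 and 9.19 (-0.26, adjusted p = 0.15). BNIP3, a mitophagy receptor, fell with ESR1 cDNA (-0.22) and with both cDNAs (-0.36), with a range of group means of 1.28-fold. The ESR1 cDNA call for BNIP3 was lost in a fit of those 6 arrays alone (adjusted p = 0.10).

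The hypoxia-inducible genes BNIP3L, DDIT4 and ANKRD37 had ranges of group means of 1.19-fold to 1.55-fold. BNIP3L, a mitophagy receptor like BNIP3, was higher with shLATS1B (0.28) and shLATS1+2 (0.33) and lower with ESR1 cDNA (-0.30, limma, adjusted p = 0.012). Its ESR1 cDNA call was lost without control array 2 or 3 and in a fit of those 6 arrays alone (adjusted p up to 0.15), and its shLATS1B call without control array 1 or shLATS1B array 2 (up to 0.078). DDIT4, an inhibitor of mTORC1 signalling, was higher by 0.16 and 0.18 in the knockdowns and lower by 0.14 with ESR1 cDNA. With array medians centred neither knockdown call was kept, that with shLATS1B was also lost without control array 3 (adjusted p up to 0.092 and 0.10), and the ESR1 cDNA call was lost in 8 alternatives (up to 0.42). ANKRD37 fell by 0.24 with both cDNAs (adjusted p = 0.0034), and its fall of 0.17 with shLATS1B (adjusted p = 0.031) was lost without any 1 control array and without shLATS1B array 2 or 3 (up to 0.12).

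STC1, a secreted glycoprotein, followed the pattern of ALDOC in its direction, with the exception that its change with both cDNAs was not called. Its log2 intensities were 8.44, 8.54 and 8.45 in the control arrays, 7.79, 7.83 and 7.97 with YAP/TAZ cDNA, and 7.28, 6.96 and 7.19 with ESR1 cDNA. It read 8.60, 8.74 and 8.68 with both cDNAs, 9.06, 9.08 and 8.87 with shLATS1B, and 8.85, 8.83 and 8.60 with shLATS1+2. STC1 fell 2.52-fold with ESR1 cDNA and 1.53-fold with YAP/TAZ cDNA (limma, adjusted p = 1.5e-08 and 0.00022). It was 1.45-fold higher with shLATS1B and 1.22-fold higher with shLATS1+2 (adjusted p = 0.00019 and 0.023), and its difference with both cDNAs was 0.20 (adjusted p = 0.11). The shLATS1+2 call was lost with array medians centred and without control array 1, control array 3, shLATS1+2 array 1 or shLATS1+2 array 2 (adjusted p up to 0.10).

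EGLN3, a HIF prolyl hydroxylase that HIF itself induces, read 7.75, 7.85 and 7.78 in the control arrays, 7.25, 7.44 and 7.37 with ESR1 cDNA, and 8.005, 8.252 and 8.248 with shLATS1B. It was lower with ESR1 cDNA (-0.44) and higher with shLATS1B (0.38) and shLATS1+2 (8.20, 8.01 and 8.02, a difference of 0.29), with no overlap with control (limma, adjusted p = 0.00044, 0.00089 and 0.0075). EGLN3 read 7.68, 7.67 and 7.56 with YAP/TAZ cDNA and 7.76, 7.90 and 7.86 with both cDNAs, with no call. KDM3A, a histone H3K9 demethylase, read 7.20, 7.27 and 7.16 in the control arrays and 6.91, 6.56 and 6.57 with ESR1 cDNA (-0.53, adjusted p = 0.00039). It read 7.03, 7.32 and 7.26 with both cDNAs, 6.97, 7.08 and 7.09 with YAP/TAZ cDNA, 7.09, 7.24 and 7.08 with shLATS1B and 7.13, 7.15 and 7.09 with shLATS1+2, with no call in these 4.

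ADM, the vasodilator adrenomedullin, ran the other way. Its log2 intensities were 7.60, 7.72 and 7.75 in the control arrays, 8.21, 8.20 and 8.08 with YAP/TAZ cDNA, and 8.05, 8.48 and 8.39 with ESR1 cDNA. They were 7.86, 7.63 and 7.60 with both cDNAs, 7.55, 7.47 and 7.58 with shLATS1B, and 7.48, 7.63 and 7.66 with shLATS1+2. The 6 arrays with a single cDNA lay above all other arrays. ADM rose 1.39-fold with YAP/TAZ cDNA and 1.54-fold with ESR1 cDNA (limma, adjusted p = 0.005 and 0.00023), and its difference from control with both cDNAs was 0.01 ± 0.096 (adjusted p = 0.97).

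VEGFA, the vascular endothelial growth factor, was higher than control in all 5 groups, most with both cDNAs. It read 8.82, 8.92 and 8.86 in the control arrays and 9.55, 9.58 and 9.52 with both cDNAs, a 1.60-fold rise (0.68 ± 0.048, limma, adjusted p = 1.2e-08). With shLATS1B it read 9.15, 9.15 and 9.13 and with shLATS1+2 9.15, 9.13 and 9.22, rises of 0.28 and 0.30. With YAP/TAZ cDNA (8.997, 9.114 and 9.108) and ESR1 cDNA (8.991, 8.996 and 9.132) the differences were 0.20 and 0.17 (adjusted p = 0.015 and 0.02). The YAP/TAZ cDNA call was lost without control array 1 or YAP/TAZ cDNA array 2 or 3 and in a fit of those 6 arrays alone (adjusted p up to 0.076). The ESR1 cDNA call was lost in 7 alternatives, namely array medians centred, an intensity trend, the array median as a covariate, a fit of the compared groups alone, and leaving out control array 1, control array 3 or ESR1 cDNA array 3 (adjusted p up to 0.17).

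STC2, a second stanniocalcin, read 6.94, 6.85 and 6.90 in the control arrays, 7.25, 7.35 and 7.42 with ESR1 cDNA and 7.66, 7.73 and 7.72 with both cDNAs. It rose 1.36-fold and 1.75-fold (limma, adjusted p = 2.9e-05 and 7.6e-09), with no overlap between these 3 groups. With YAP/TAZ cDNA it read 7.06, 7.09 and 7.14 (0.20, adjusted p = 0.034), a call lost in 10 alternatives (adjusted p up to 0.15). In the knockdowns STC2 lay between 6.80 and 7.07, with no call.

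The 2 HIF alpha subunits differed in direction. HIF1A read 11.51, 11.52 and 11.43 in the control arrays, 11.86, 11.95 and 12.01 with both cDNAs and 11.69, 11.81 and 11.82 with shLATS1B. It was higher than control in both groups, by 0.46 and 0.29 (limma, adjusted p = 0.00014 and 0.009). With shLATS1+2 it read 11.76, 11.73 and 11.56 (0.20, adjusted p = 0.064), with YAP/TAZ cDNA 11.56, 11.58 and 11.64, and with ESR1 cDNA 11.58, 11.35 and 11.25, with no call. EPAS1 (HIF-2 alpha) read 10.72, 10.55 and 10.48 in the control arrays and 10.15, 10.05 and 9.84 with shLATS1+2, a 1.48-fold fall (adjusted p = 0.00071). With shLATS1B it read 10.23, 10.31 and 10.26 (-0.31, adjusted p = 0.041), a call lost with array medians centred, after quantile normalization, and without control array 1, control array 2 or any shLATS1B array (adjusted p up to 0.15). EPAS1 read 10.61, 10.72 and 10.71 with YAP/TAZ cDNA, 10.69, 10.23 and 10.25 with ESR1 cDNA and 10.22, 10.42 and 10.39 with both cDNAs, with no call. These are transcript levels, and HIF protein was not measured.

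The 4 cDNA groups form a 2-by-2 design, which asks whether both cDNAs together act as the sum of each alone. The interaction is the value with both cDNAs minus that with YAP/TAZ cDNA, minus that with ESR1 cDNA, plus that of the control arrays. It was called above 0 for 15 members and below 0 for 1 (all genes 11.4% and 7.68%). The estimate was positive for 27 of 34 members, with a median of 0.28 over the members and 0.00 over all genes. ALDOC (2.42 ± 0.15, adjusted p = 7.5e-09) and STC1 (2.14 ± 0.12, adjusted p = 3.1e-09) had the largest values, since each single cDNA lowered them and the pair did not. SLC2A1 followed at 1.00 ± 0.094 (adjusted p = 1.3e-06, limma), and ADM was the one member called below 0 at -1.08 ± 0.14 (adjusted p = 2.9e-05). KDM3A, SLC2A3 and EGLN3 had interactions of 0.69, 0.67 and 0.64. NDRG1, PDK1 and BNIP3, which were lower with both cDNAs, had values of 0.26, -0.12 and -0.01, with no call. The interaction sets the groups against each other along the first principal component, and the part of that division was not tested. ESR1 itself had an interaction of -0.65 (limma, adjusted p = 0.00076), and its level with both cDNAs was below that with ESR1 cDNA alone. Interactions were also called for WWTR1 (0.92), LATS1 (0.64) and YAP1 (0.37, limma, adjusted p = 7.4e-05, 0.00063 and 0.021). That of LATS2 was not called (0.03, adjusted p = 0.87). The part of these differences was not tested either.

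Of the 14 enzymes, 4 (28.6%) had a called interaction, all above 0: ALDOC, ENO2, PKM and ALDOA. Of all genes 11.4% were called above 0 and 7.68% below. Without ESR1 cDNA array 1 and shLATS1+2 array 3, 8 enzymes were called (5952 genes called in all, against 3512). With the array median as a covariate 1 was (1881 genes). Leaving out single arrays of these groups gave 2 to 7, where 7 was reached without ESR1 cDNA array 1 (5607 genes). The lowest count, 2, came without control array 1, control array 2, YAP/TAZ cDNA array 3, ESR1 cDNA array 2 or array 3 of both cDNAs. In these fits 2816, 3253, 2983, 2614 and 2593 genes were called in all. Of the hypoxia-inducible genes, 7 were called above 0 and 1 below 0 in the main fit.

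**Figure D3:**
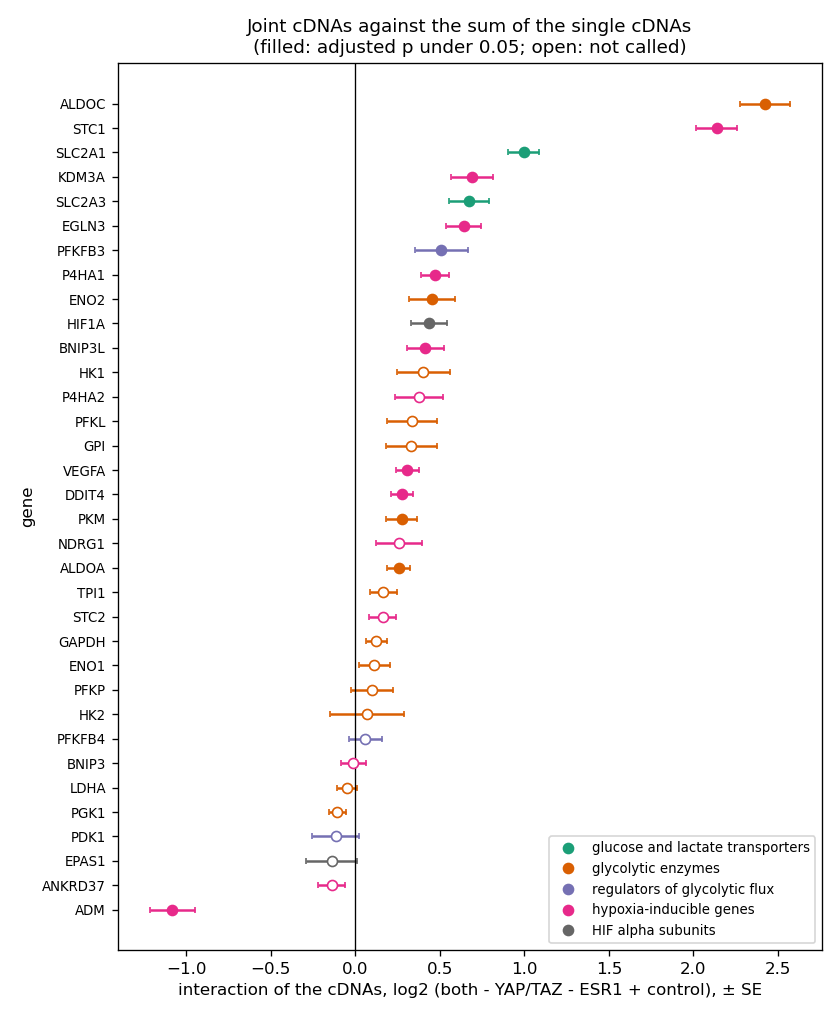
Points are the interaction of the cDNAs (log2) for each of the 34 members, bars are 1 standard error of the moderated fit, colours are roles, and filled points passed an adjusted p of 0.05. ALDOC, STC1 and SLC2A1 lie farthest above 0, and ADM alone lies below 0 among the filled points.

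Both cDNAs were also set directly against each single cDNA. Against YAP/TAZ cDNA, 9 members were higher and 10 lower (all genes 12.3% and 10.5%), and against ESR1 cDNA 14 were higher and 4 lower (all genes 16.2% and 12.9%). ALDOC was higher by 1.37 and 1.63, STC1 by 0.81 and 1.53, and SLC2A1 by 0.87 and 0.95. VEGFA was higher by 0.48 and 0.51 and HIF1A by 0.35 and 0.55. PDK1 was lower by 0.53 and 0.55 than with the single cDNAs, and ADM by 0.46 and 0.61, and all these differences were called (limma, adjusted p at most 0.0024).

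The 2 knockdowns were not told apart on these genes: no member was called higher or lower with shLATS1+2 than with shLATS1B (limma; all genes 0.141% and 0.179%). At an unadjusted p under 0.05 there were 9 of 34 members, all lower with shLATS1+2, where 11.6% of all genes passed and 6.56% were lower. Their largest difference was HK2, at -0.40 ± 0.16, followed by NDRG1 at -0.38 ± 0.096 (adjusted p = 0.39 and 0.15). NDRG1 was called when arrays were weighted by their fit, and also without shLATS1+2 array 1. The arrays labelled shLATS1+2 include array 3, in which the mean enzyme log2 intensity was 10.64, against 10.83 in each of the other 2, and LATS2 was not lower in this group.

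Enzymes and hypoxia-inducible genes were also averaged by array, as a description. The mean of the 14 enzymes was 10.95, 10.87 and 10.82 in the control arrays and 10.87, 10.96 and 10.93 with shLATS1B, which overlapped. The mean of the 13 hypoxia-inducible genes was 8.79, 8.85 and 8.81 in the control arrays and 8.71, 8.76 and 8.71 with shLATS1B, which did not. NDRG1 carried that gap: the mean of the other 12 was 8.64, 8.72 and 8.68 in the control arrays and 8.70, 8.76 and 8.71 with shLATS1B. In that group 5 of the 13 genes were called higher and 4 lower (all genes 12.4% and 11.6%). With ESR1 cDNA both means were below control in all 3 arrays, at 10.77, 10.52 and 10.53 for the enzymes and 8.49, 8.45 and 8.49 for the hypoxia-inducible genes. The hypoxia-inducible genes called with ESR1 cDNA numbered 3 higher (VEGFA, ADM and STC2) and 9 lower (all genes 7.04% and 11.9%). Their lower count was 7 to 9 when single arrays were left out (2299 to 5461 genes called in all). It was 9 without the 2 arrays named above (5776 genes). It was 8 with the array median as a covariate (1992 genes called in all, against 3487). In a fit of the control and ESR1 cDNA arrays alone it was 6 (1126 genes called in all).

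**Figure D4:**
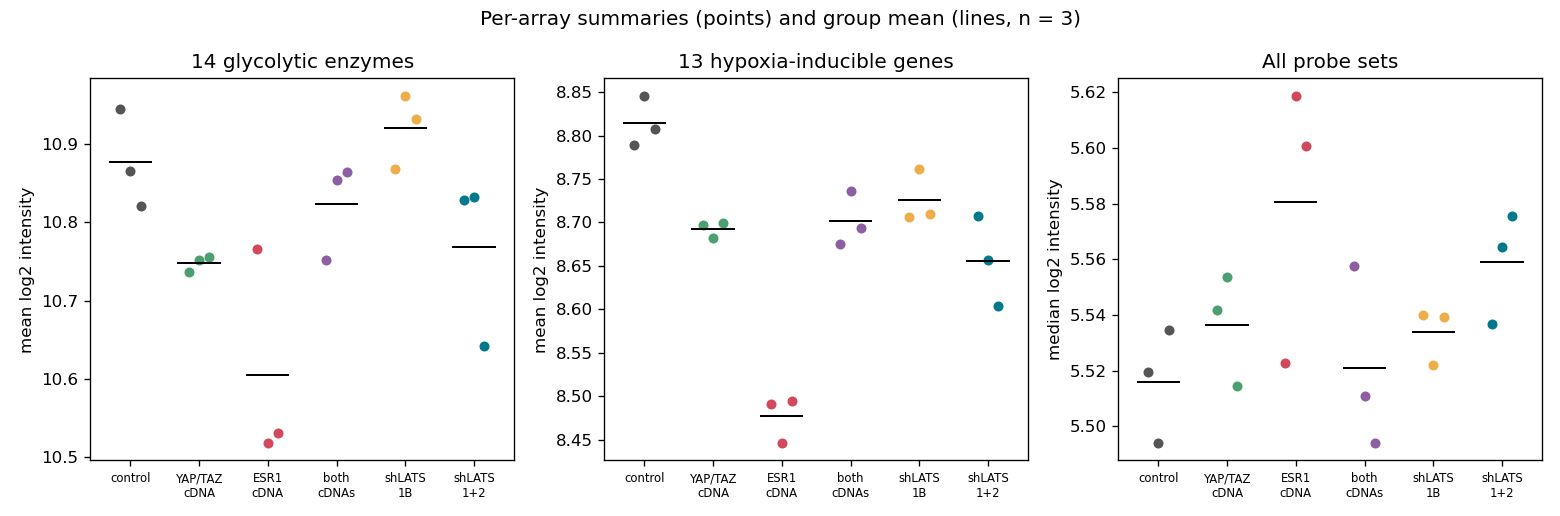
Points are the mean log2 intensity of 14 glycolytic enzymes, that of 13 hypoxia-inducible genes and the median of all probe sets in each array, and lines are means of 3 arrays per group. ESR1 cDNA arrays 2 and 3 have the lowest enzyme means and the highest medians, and ESR1 cDNA array 1 stands apart from them.

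Other genes of the pathway came from lists of further glycolysis genes (32 of 36 measured), HIF regulators (15 of 16) and other hypoxia-inducible genes (41 of 44). Of the glycolysis genes, 7 rose and 5 fell with shLATS1B, 5 and 6 with shLATS1+2, 2 and 3 with YAP/TAZ cDNA, 2 and 6 with ESR1 cDNA, and 8 and 4 with both cDNAs. The share of all genes called in either direction was 24%, 24.8%, 7%, 18.9% and 29.4% in these comparisons, and of the 32 glycolysis genes 37.5%, 34.4%, 15.6%, 25% and 37.5% were called. TXNIP, which limits glucose uptake, read 10.79, 10.63 and 10.59 in the control arrays and 12.15, 12.27 and 12.25 with both cDNAs, a rise of 1.55. It rose in the other groups as well, by 0.73 with YAP/TAZ cDNA, 0.91 with ESR1 cDNA, 1.24 with shLATS1B and 1.07 with shLATS1+2 (limma, adjusted p at most 9.8e-07). Its relative ARRDC4 read 6.58, 6.75 and 6.72 in the control arrays and 8.41, 8.36 and 8.29 with both cDNAs (1.67, adjusted p = 2.2e-11), with an interaction of 1.99. The transporter SLC2A12 read 5.31, 5.60 and 5.54 in the control arrays and lay between 6.74 and 7.25 with both cDNAs and in the knockdowns, rises of 1.73, 1.44 and 1.54.

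Of the HIF regulators, 3 rose and 1 fell with shLATS1B, 4 and 1 with shLATS1+2, 1 and 0 with YAP/TAZ cDNA, 2 and 3 with ESR1 cDNA, and 5 and 1 with both cDNAs. These were 26.7%, 33.3%, 6.67%, 33.3% and 40% of the 15, against the shares of all genes given above, and those with shLATS1B and with YAP/TAZ cDNA lay near them. CITED2, which competes with HIF for its co-activator, read 8.61, 8.58 and 8.56 in the control arrays, 9.98, 10.09 and 10.03 with both cDNAs and between 9.64 and 9.95 in the 6 knockdown arrays. It rose by 1.44, and by 1.32 and 1.17 in the knockdowns, and its differences with the single cDNAs were 0.01 and -0.04, with no call. VHL, the ubiquitin ligase component that marks HIF alpha for destruction, read 7.50, 7.66 and 7.38 in the control arrays and between 8.29 and 8.61 in the arrays with both cDNAs and the knockdowns. It rose by 0.99, 0.90 and 0.86 (limma, adjusted p = 3e-07, 1.3e-06 and 2.2e-06).

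Of the other hypoxia-inducible genes, 8 rose and 12 fell with shLATS1B, 9 and 11 with shLATS1+2, 3 and 2 with YAP/TAZ cDNA, 3 and 11 with ESR1 cDNA, and 7 and 13 with both cDNAs. These were 48.8%, 48.8%, 12.2%, 34.1% and 48.8% of the 41, against 24%, 24.8%, 7%, 18.9% and 29.4% of all genes. Those that fell included ANGPTL4, a secreted lipase inhibitor, which read 11.03, 10.92 and 11.05 in the control arrays and lay between 8.07 and 8.69 with both cDNAs and in the knockdowns (-2.87, -2.36 and -2.40). CA12, a membrane carbonic anhydrase, read 10.08, 10.03 and 9.98 in the control arrays and 9.195, 9.162 and 9.005 with shLATS1+2 (-0.91, adjusted p = 2e-08). EFNA1, an ephrin ligand, rose by 0.84 with shLATS1B and 1.21 with shLATS1+2, from 7.17, 7.32 and 7.37 in the control arrays to 8.11 to 8.63, and its difference with both cDNAs was 0.19 (adjusted p = 0.17). EDN1, the vasoconstrictor endothelin-1, read 6.27, 6.18 and 6.40 in the control arrays, 6.75, 7.01 and 7.03 with ESR1 cDNA and 5.82, 5.76 and 5.67 with both cDNAs. Like ADM it had an interaction below 0 (-1.54 ± 0.13, adjusted p = 2.6e-07, limma), and it differed from ADM in falling below control with both cDNAs (-0.53). LOXL2, a collagen cross-linking oxidase, fell by 0.66 with YAP/TAZ cDNA, 1.11 with ESR1 cDNA and 0.79 with both cDNAs, from 9.97, 9.85 and 9.84 in the control arrays.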

How the data were processed

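Gene expression was measured in 18 MCF10A samples with Affymetrix whole-transcript arrays, 3 in each of 6 groups taken from the sample titles. The authors deposited 1 table of log2 intensities with 32321 probe sets, and affy, an R package, is named without a version in the submitters' processing notes. How background was corrected and how arrays were normalized and summarised is not given in the sources used here, nor is a genome build. Depth does not apply to arrays, and their number limits the precision. No filter on brightness was applied.

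Gene names came from the platform annotation, in which 19158 probe sets carried 1 symbol, 1388 several and 11775 none, and symbols were updated through RefSeq (GRCh38.p14; 19128 probe sets matched). The probe set with the highest mean was kept for each of 18404 genes. One mean per group was fitted over all 18 arrays in R 4.3.3 with limma 3.58.1 (lmFit, contrasts.fit, eBayes), with 12 residual and 3.94 prior degrees of freedom. Tests were two-sided, with Benjamini-Hochberg adjustment over all genes of each of 9 comparisons. The fit was tested on simulated data. ± after a log2 difference is the standard error of the moderated fit.

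The members, the gene lists, the tests and the alternatives were chosen with earlier results of these data known. Values were given array by array for the 3 members of each role with the widest range of group means, for both HIF alpha subunits and for other members changed at least 1.5-fold in a called comparison, 19 in all. From the other pathway lists the rule allowed, per comparison, up to 6 called genes changed at least 1.5-fold, and values for PGK1 and other members outside the rule were added after they were seen. Same-numbered replicates of different groups had correlations of -0.694 to 0.631 between their deviations from the group means. The median was -0.0832 over 45 pairs, of which 13 were over 0.1, and 0.063 over pairs with other numbers. The main fit therefore used no pairing by number, and whether some groups were paired was not tested.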

Additional observations from a re-analysis of the deposited data

Results flagged for a closer look

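The change with both cDNAs differed from the sum of the changes with each cDNA, by the test of the interaction itself (limma, adjusted p under 0.05), for 16 members. The interaction was 2.42 for ALDOC, 2.14 for STC1, 1.00 for SLC2A1, 0.69 for KDM3A, 0.67 for SLC2A3, 0.64 for EGLN3 and 0.47 for P4HA1 (log2). These 7 and ADM, at -1.08, kept their call under every alternative run apart from the minimum change of 1.5-fold, which P4HA1 does not reach. BNIP3L (0.41) and VEGFA (0.31) kept theirs with the same exception, as both lie under 1.5-fold. The calls of HIF1A (0.44), DDIT4 (0.28) and ALDOA (0.26) were lost with the array median as a covariate (adjusted p = 0.14, 0.092 and 0.25). PFKFB3 (0.51), ENO2 (0.45) and PKM (0.27) lost their calls in 10, 8 and 14 alternatives (adjusted p up to 0.54, 0.13 and 0.59).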

How the results depend on the processing

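Alternatives were centring of array medians, quantile normalization, the mean of a gene's probe sets, brighter genes only, an intensity trend, array weights, the replicate block, a fit of the compared groups alone, a minimum change of 1.5-fold, leaving out each array and, chosen after seeing the data, the array median as a covariate and leaving out ESR1 cDNA array 1 with shLATS1+2 array 3. No value of the 19 members given array by array changed sign while called. Of their 93 called values, 73 kept the call in all alternatives other than the 1.5-fold minimum, which was applied to counts only, and of 2850 alternative values 104 lost and 67 gained a call. Requiring 1.5-fold left 4 members called with shLATS1B, 4 with shLATS1+2, 2 with YAP/TAZ cDNA, 6 with ESR1 cDNA and 5 with both cDNAs, 5 for both against YAP/TAZ cDNA, 4 for both against ESR1 cDNA and 7 for the interaction. Of the 18404 genes, 926, 940, 191, 446, 1335, 842, 1125 and 1277 were called at that minimum, in the same order. Called members with ESR1 cDNA numbered 9 in a fit of the compared groups alone (1126 genes called in all, against 3487), 13 with the array median as a covariate (1992 genes) and 30 without the 2 arrays that stood apart (5776 genes). When single arrays were left out they ranged from 14 (without ESR1 cDNA array 3, 2394 genes) to 28 (without ESR1 cDNA array 1, 5461 genes). With YAP/TAZ cDNA they ranged from 5 (without YAP/TAZ cDNA array 2, 848 genes) to 7. The 7 came without control array 1 (1246 genes) or YAP/TAZ cDNA array 1 (922 genes), against 8 and 1289 genes in the main fit. For shLATS1+2 against shLATS1B, 1 member was called with array weights (248 genes called in all). When single arrays were left out 0 to 1 were, with the 1 without shLATS1+2 array 1 (54 genes). The cause of these moves was not tested. With the replicate block, 20, 17, 0, 7, 21, 16, 18, 18 and 15 members were called in the 9 comparisons, in the order shLATS1B, shLATS1+2, shLATS1+2 against shLATS1B, YAP/TAZ, ESR1 and both cDNAs, both against YAP/TAZ cDNA, both against ESR1 cDNA and the interaction, against 20, 17, 0, 8, 23, 16, 19, 18 and 16 without it. Of all genes, 4254, 4370, 55, 1147, 3288, 5244, 4013, 5141 and 3311 were called with the block, in the same order. Without it 4415, 4564, 59, 1289, 3487, 5414, 4186, 5359 and 3512 were. Changes near a log2 difference of 0.1 to 0.2 are close to the spread of 3 arrays.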
